A study of Mus musculus with 24 samples.

Results

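The genes described here are 37 members of the glycolytic pathway and of the cellular response to low oxygen, chosen by name from the 54505 genes of the deposited expression table. They comprise 20 genes of glucose uptake, glycolysis and pyruvate or lactate handling, and 17 genes of the hypoxia-inducible factors, their oxygen sensors and their other targets. One symbol, Aldoa, has 2 gene entries, so the members fill 38 lines of the table. The main entry (ENSMUSG00000030695) is used throughout, and the second (ENSMUSG00000114515) averaged 0.590 to 2.73 FPKM over the groups.

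Lewis lung carcinoma, a mouse lung cancer line, was grown in the pleural space of C57BL/6 mice until it formed a malignant effusion. The labels give 3 mice per treatment. On day 11 the mice were injected into the pleural space with both LNP-CDN and anti-PD-L1 (called the combination below), with LNP-CDN alone, with anti-PD-L1 alone, or with phosphate-buffered saline (PBS). LNP-CDN is a nanoparticle carrying 1 µg of the STING agonist cGAMP, and anti-PD-L1 is 30 µg of the antibody clone 10F.9G2. On day 13 the pleural tumors and the pleural fluid were collected, which gave 8 groups of 3 libraries and 24 libraries in all. Tumors were digested with collagenase, hyaluronidase and DNase, red cells were lysed in both materials, and neither was sorted, so each library is a mixture of malignant and host cells. The labels number the replicates but do not tie a fluid library to a tumor library of the same mouse. Y-linked RNA, given below, sets 1 PBS tumor library apart from every PBS fluid library. If every library is labelled correctly, the PBS tumors and PBS fluid do not all come from the same 3 mice. Whether a library was mislabelled was not tested. Which other libraries share a mouse is not known.

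Glycolysis splits glucose into pyruvate in the cytosol and, when pyruvate is reduced to lactate, yields ATP without oxygen. Hypoxia-inducible factors (HIFs) are transcription factors whose alpha subunits are hydroxylated by EGLN prolyl hydroxylases when oxygen is present and are then degraded. When oxygen is scarce the alpha subunits persist, bind short DNA elements and raise the transcription of glucose transporters, glycolytic enzymes and genes that limit mitochondrial oxygen use. Tumors are known for high HIF activity, and activated macrophages and neutrophils also rely on glycolysis.

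The core of a hypoxia response element reads ACGTG or GCGTG, so the 250 bases before the transcription start of each member were searched for both on either strand (CACGT and CACGC when read from the other strand). Sites that overlap on both strands, as in CACGTG, were counted as 1. The promoters of 4 members are shown, from RefSeq on build GRCm38.p6 with sites in capitals. They belong to the gene with the largest treatment difference (Egln3), a gene called against PBS in tumors but not in fluid (Pdk1), an X-linked enzyme that fell in fluid (Pgk1) and a gene that rose there (P4ha1). They lie at chr12:54203875-54204124 on the minus strand for Egln3, and on the plus strand at chr2:71872974-71873223 for Pdk1, chrX:106186850-106187099 for Pgk1 and chr10:59323046-59323295 for P4ha1.
Egln3: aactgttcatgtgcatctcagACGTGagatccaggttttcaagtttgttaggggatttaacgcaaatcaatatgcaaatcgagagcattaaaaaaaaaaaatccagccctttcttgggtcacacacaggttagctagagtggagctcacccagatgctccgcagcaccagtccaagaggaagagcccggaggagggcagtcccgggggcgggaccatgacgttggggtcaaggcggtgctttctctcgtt
Pdk1: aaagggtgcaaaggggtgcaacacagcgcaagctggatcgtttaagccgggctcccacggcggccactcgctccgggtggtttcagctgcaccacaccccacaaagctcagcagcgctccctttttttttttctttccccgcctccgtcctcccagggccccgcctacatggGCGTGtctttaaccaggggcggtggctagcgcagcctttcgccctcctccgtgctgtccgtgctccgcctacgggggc
Pgk1: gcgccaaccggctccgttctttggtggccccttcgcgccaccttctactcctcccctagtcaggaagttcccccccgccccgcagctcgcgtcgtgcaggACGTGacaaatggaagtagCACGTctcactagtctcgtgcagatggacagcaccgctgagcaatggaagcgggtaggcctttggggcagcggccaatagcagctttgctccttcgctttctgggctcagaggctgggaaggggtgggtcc
P4ha1: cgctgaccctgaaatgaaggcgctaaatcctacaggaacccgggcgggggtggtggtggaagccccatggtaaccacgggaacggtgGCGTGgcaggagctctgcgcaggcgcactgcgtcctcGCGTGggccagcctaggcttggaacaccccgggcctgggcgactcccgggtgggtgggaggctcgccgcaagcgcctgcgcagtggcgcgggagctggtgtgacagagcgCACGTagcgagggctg
The Egln3 and Pdk1 windows hold 1 site each, Pgk1 holds 2 and P4ha1 holds 3. Of the 37 members, 33 were in the promoter table, and Epas1, Bnip3l, Ndrg1 and Bhlhe40 were not. At least 1 site lay in 37 of the 48 listed member promoters (77.1%), against 12679 of all 32851 promoters in the table (38.6%). Some members have several listed promoters, and with 1 start per gene 25 of the 33 had a site (75.8%). The members include genes chosen as HIF targets, so these shares are no test of HIF control. ACGTG was found in 23 of the 48 member promoters and in 16.6% of all promoters, and GCGTG in 24 of the 48 and in 28.2% of all. Member promoters were also richer in G and C, with a median of 62.8% against 52.4%, and the part of base composition in these shares was not tested.

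The recovered depth was 14584438 to 26888253 reads per library. Values are FPKM, a level per unit of transcript length, given as mean ± SD with n = 3. Changes are log2 differences of FPKM + 1 with the standard error, tested with limma across all genes of a tissue with Benjamini-Hochberg adjustment, two-sided, and a gene was called when its adjusted p was under 0.05. The cell mixture moved with treatment in fluid. The summed FPKM of 9 neutrophil markers was 882 to 1985 with the combination, 902 to 3032 with LNP-CDN and 663 to 1112 with anti-PD-L1, against 3435 to 5382 with PBS, and that of 9 macrophage markers was 4353 to 4794 with the combination, 4376 to 5597 with LNP-CDN and 3087 to 7377 with anti-PD-L1, against 3333 to 3840 with PBS. The erythroid marker Alas2 averaged 0.243 FPKM with the combination, 0.643 FPKM with LNP-CDN and 27.3 FPKM with anti-PD-L1, against 36.7 FPKM with PBS. Cell cycle genes fell in part with the combination (7 of 8) and LNP-CDN (5 of 8) and rose with anti-PD-L1 (5 of 8), summing to 109 to 123 FPKM, 117 to 144 FPKM and 234 to 279 FPKM in these groups, against 167 to 180.4 FPKM with PBS. All 6 B cell markers fell with each treatment, and 4 of 6 fibroblast markers fell with the combination and none with the single agents. Of 6 monocyte markers 3 rose and 2 fell with the combination, 2 rose and 2 fell with LNP-CDN, and 2 fell with anti-PD-L1, and of 8 T cell markers none, 1 and 4 fell in the same order. The share of reads from mitochondrial genes was 0.306 to 0.429% in fluid libraries given LNP-CDN, alone or combined, and 0.753 to 1.05% in the other fluid libraries. In these bulk samples fewer cells of a type and less RNA per cell cannot be told apart, and the part of cell mixture in the results was not tested.

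Sex also differed. Y-linked Ddx3y averaged 22.7 FPKM in anti-PD-L1 fluid and at most 0.0283 FPKM in any other fluid library, so sex and anti-PD-L1 cannot be told apart in fluid. In tumors Ddx3y lay between 3.27 and 3.44 FPKM with anti-PD-L1, reached 3.55 FPKM in 1 PBS library and was at most 0.00821 FPKM with LNP-CDN alone or combined. In tumors, then, sex cannot be told apart from the comparison of the combination with anti-PD-L1, and no PBS fluid library matches the PBS tumor library with Ddx3y. The kit does not mark strand, so reads of overlapping antisense genes cannot be told apart from those of several members, including Slc2a1, Hk1, Pfkfb3, Hif1a and Ankrd37. Related copies that could share reads were low, with Pgam1-ps2 reaching 3.90 FPKM, Eno1b 1.76 FPKM and Bnip3l-ps 1.43 FPKM.

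In fluid cells the members that changed were mostly lower than with PBS. With the combination, 14 of the 36 members tested fell and none rose, 38.9% against 30.1% of all 13518 genes called in either direction, 15.6% higher and 14.4% lower. With LNP-CDN, 10 fell and 1 rose, 30.6% called against 26.0% of all genes, with 2.78% of members higher against 13.7% of all genes and 27.8% lower against 12.3%. With anti-PD-L1, 7 fell and 1 rose, 22.2% called against 13.0% of all genes, with 2.78% higher against 5.47% and 19.4% lower against 7.49%. The share of members called in either direction with LNP-CDN is near that of all genes. The median member change was -0.33 with the combination, -0.19 with LNP-CDN and -0.15 with anti-PD-L1, beside medians over all genes of 0.00, 0.00 and 0.03. These 3 comparisons share the PBS libraries, so they are not independent of each other. Eno2 was under the filter on low values in fluid and is given by its levels only.

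**Figure D1:**
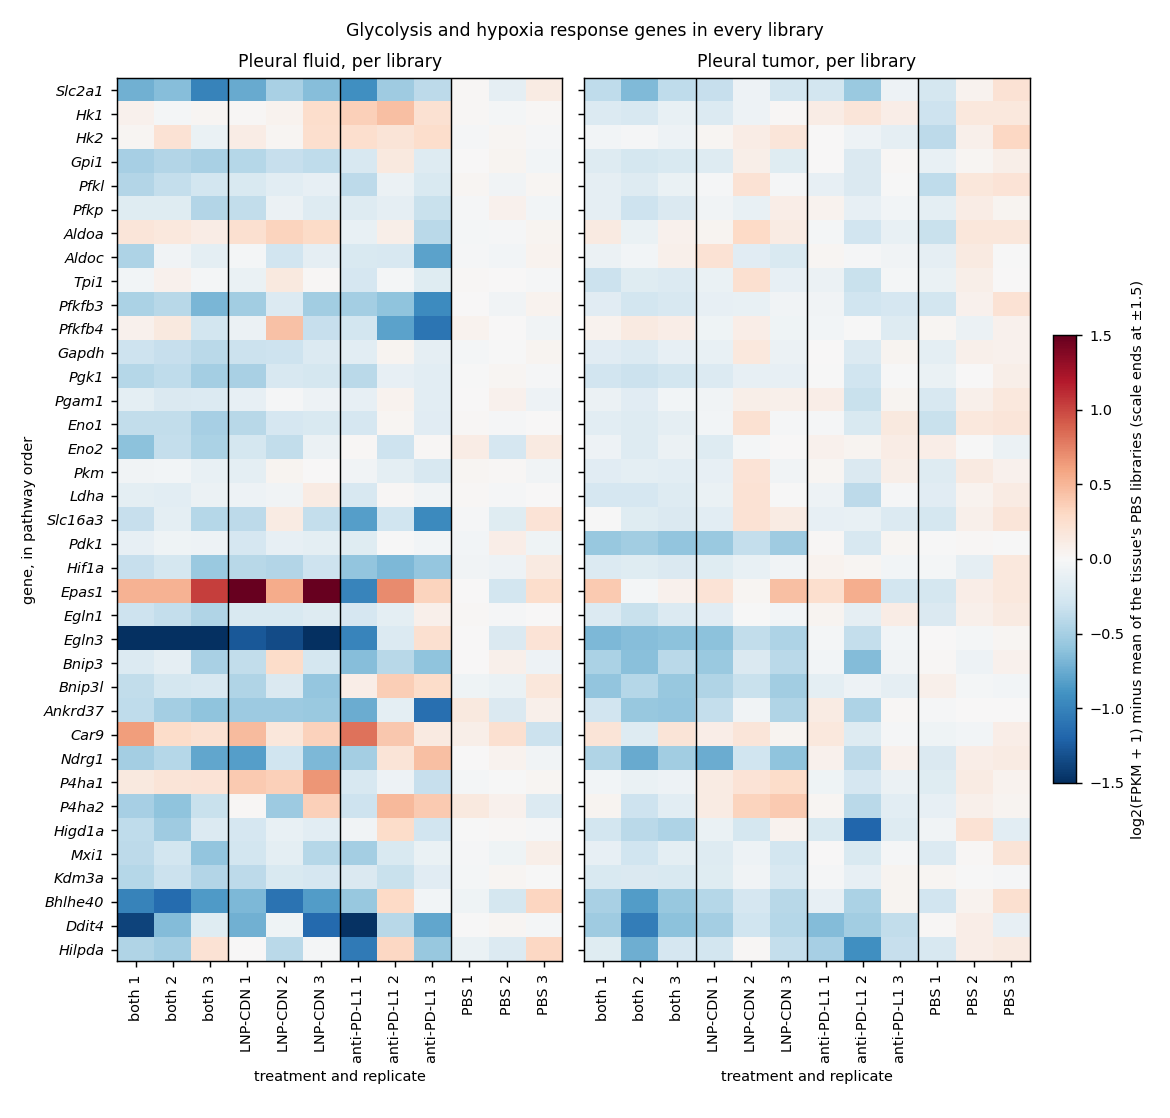
Level of the 37 members in each of the 24 libraries, as log2(FPKM + 1) minus the mean of the PBS libraries of the same tissue, with genes in pathway order down the page and fluid and tumor libraries in separate panels. Blue is lower and red higher than the PBS mean, colours end at 1.5 either way, and Egln3 is blue in all 6 fluid libraries given LNP-CDN, alone or combined.

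The glucose transporter gene of the members was lower with every treatment in fluid. Slc2a1 (chr4:119108711-119137983, plus strand) encodes GLUT1, the main basal glucose transporter. It had 55.6, 58.7 and 45.7 FPKM with the combination, 54.4, 65.7 and 59.1 FPKM with LNP-CDN, and 48.1, 63.6 and 69.8 FPKM with anti-PD-L1, against 93.6, 83.7 and 100.2 FPKM with PBS. All 9 treated libraries lay below the 3 PBS libraries. The log2 change was -0.79 ± 0.14 with the combination (limma adjusted p = 0.00254), -0.62 ± 0.14 with LNP-CDN (adjusted p = 0.0101) and -0.62 ± 0.14 with anti-PD-L1 (adjusted p = 0.0199).

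The hexokinases, which trap glucose as glucose-6-phosphate, did not share this pattern. Hk1 had 28.6, 30.8 and 26.1 FPKM with anti-PD-L1, against 22.5, 21.6 and 22.3 FPKM with PBS. It rose by 0.35 ± 0.08 (limma adjusted p = 0.0185), with every anti-PD-L1 library above every PBS library. With the combination Hk1 averaged 22.5 ± 0.787 FPKM and with LNP-CDN 24.04 ± 2.34 FPKM (SD, n = 3 each), and neither was called against PBS at 22.2 ± 0.475 FPKM. Hk2, the HIF-inducible form, averaged between 28.6 FPKM with PBS and 33.9 FPKM with anti-PD-L1 in fluid and was called in no comparison between treatments.

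The bifunctional enzymes that make fructose-2,6-bisphosphate, the strongest activator of phosphofructokinase, were also lower in part. Pfkfb3 (chr2:11471433-11554077, minus strand), the isoform with high kinase activity, had 30.4, 31.6 and 26.1 FPKM with the combination, 29.2, 36.8 and 29.3 FPKM with LNP-CDN, and 29.6, 27.6 and 21.5 FPKM with anti-PD-L1, against 42.6, 41.0 and 44.0 FPKM with PBS. No treated library reached the PBS range. The changes were -0.52 ± 0.13 (limma adjusted p = 0.0106), -0.42 ± 0.13 (adjusted p = 0.0333) and -0.69 ± 0.13 (adjusted p = 0.00765) in that order. Pfkfb4 had 14.9, 9.99 and 8.01 FPKM with anti-PD-L1, against 18.9, 18.3 and 17.5 FPKM with PBS, a change of -0.73 ± 0.22 that missed the threshold (limma adjusted p = 0.0576), while its means with the combination (18.1 FPKM) and LNP-CDN (18.8 FPKM) were close to PBS (18.2 FPKM).

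Among the enzymes that carry the carbon skeleton, the changes were smaller. Gpi1, which isomerises glucose-6-phosphate, averaged 111 ± 2.33 FPKM with the combination and 118 ± 3.66 FPKM with LNP-CDN, against 154 ± 4.05 FPKM with PBS, and fell by 0.47 ± 0.09 (limma adjusted p = 0.00421) and by 0.39 ± 0.09 (adjusted p = 0.0137). Pgk1, the first ATP-yielding kinase of the pathway, had 330, 342 and 310 FPKM with the combination and 317, 376 and 371 FPKM with LNP-CDN, against 440, 453 and 437 FPKM with PBS. These groups did not overlap, and the changes were -0.44 ± 0.10 (limma adjusted p = 0.00978) and -0.33 ± 0.10 (adjusted p = 0.0410). Eno1, which makes phosphoenolpyruvate, averaged 344 ± 17.0 FPKM with the combination and 372 ± 24.9 FPKM with LNP-CDN, against 458 ± 4.91 FPKM with PBS, with changes of -0.41 ± 0.10 (limma adjusted p = 0.00934) and -0.30 ± 0.10 (adjusted p = 0.0436). Pfkl, the liver-type phosphofructokinase, and Gapdh fell with the combination, by 0.36 ± 0.08 (limma adjusted p = 0.00722) and 0.35 ± 0.10 (adjusted p = 0.0217). Neither was called with LNP-CDN or with anti-PD-L1.

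Several enzymes of the same chain were called in no comparison between treatments. In fluid Aldoa, the main aldolase, averaged 496 ± 12.4 FPKM with the combination, 543 ± 18.0 FPKM with LNP-CDN and 408 ± 68.6 FPKM with anti-PD-L1, against 446 ± 11.0 FPKM with PBS. Pfkp averaged 22.5 to 23.3 FPKM with treatment, against 27.2 FPKM with PBS. Tpi1, which interconverts the triose phosphates, lay between 237 and 268 FPKM, and Pgam1, the phosphoglycerate mutase, between 148 and 169 FPKM. Pkm, the pyruvate kinase gene of most tissues, lay between 708 and 782 FPKM, and Ldha, which makes lactate, between 370 and 407 FPKM. Aldoc was low, at 2.69 to 3.87 FPKM, and Eno2, known as neuronal enolase, lower still at 0.345 to 0.884 FPKM.

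At the lactate end, Slc16a3, which encodes the lactate exporter MCT4, fell with anti-PD-L1. It had 55.2, 80.1 and 50.5 FPKM, against 97.8, 86.8 and 114 FPKM with PBS, with no overlap and a change of -0.70 ± 0.19 (limma adjusted p = 0.0373). With the combination it averaged 80.3 ± 8.32 FPKM and with LNP-CDN 86.7 ± 18.4 FPKM, uncalled against 99.6 ± 13.8 FPKM with PBS. Pdk1, a kinase that inactivates pyruvate dehydrogenase and so keeps pyruvate out of mitochondria, averaged 16.04, 15.0 and 16.2 FPKM with the 3 treatments and 17.1 FPKM with PBS in fluid, with no call.

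Hif1a (chr12:73901375-73947530, plus strand), which encodes the oxygen-regulated subunit HIF-1α, was lower with each treatment. It had 78.5, 82.8 and 67.6 FPKM with the combination, 74.5, 73.2 and 80.6 FPKM with LNP-CDN, and 65.6, 62.4 and 66.5 FPKM with anti-PD-L1, against 96.2, 94.4 and 109 FPKM with PBS. All treated libraries lay under the lowest PBS library. The changes were -0.39 ± 0.09 (limma adjusted p = 0.00811), -0.39 ± 0.09 (adjusted p = 0.00978) and -0.62 ± 0.09 (adjusted p = 0.00279). HIF-1α is regulated mainly through protein stability, which RNA levels do not show.

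Epas1, which encodes HIF-2α, went the other way in level without passing the test. It had 10.2, 4.83 and 10.3 FPKM with LNP-CDN and 4.70, 4.71 and 7.19 FPKM with the combination, against 3.00, 2.29 and 3.78 FPKM with PBS. Every library given LNP-CDN was above every PBS library, with changes of 1.19 ± 0.40 (limma adjusted p = 0.0509) and 0.69 ± 0.40 (adjusted p = 0.214). With anti-PD-L1 the 3 libraries spread from 1.01 to 5.48 FPKM.

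Egln3 (chr12:54178981-54203860, minus strand), a HIF-inducible prolyl hydroxylase that feeds back on HIF, had the largest change of any member called between treatments. It had 9.36, 10.6 and 12.5 FPKM with the combination and 14.8, 14.0 and 12.5 FPKM with LNP-CDN, against 37.5, 31.9 and 42.9 FPKM with PBS. The highest library given LNP-CDN held less than the lowest PBS library. The changes were -1.70 ± 0.25 (limma adjusted p = 0.000827) and -1.37 ± 0.25 (adjusted p = 0.00312), or mean levels 3.46-fold and 2.72-fold higher in PBS. With anti-PD-L1 it had 18.3, 32.2 and 44.1 FPKM, which overlapped PBS and was not called (-0.32 ± 0.25, limma adjusted p = 0.425). Egln1, the main constitutive oxygen sensor, averaged 22.8 ± 1.17 FPKM with the combination, against 29.7 ± 0.366 FPKM with PBS (-0.37 ± 0.08, limma adjusted p = 0.00573), and 25.4 FPKM with LNP-CDN and 27.6 FPKM with anti-PD-L1 with no call.

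**Figure D2:**
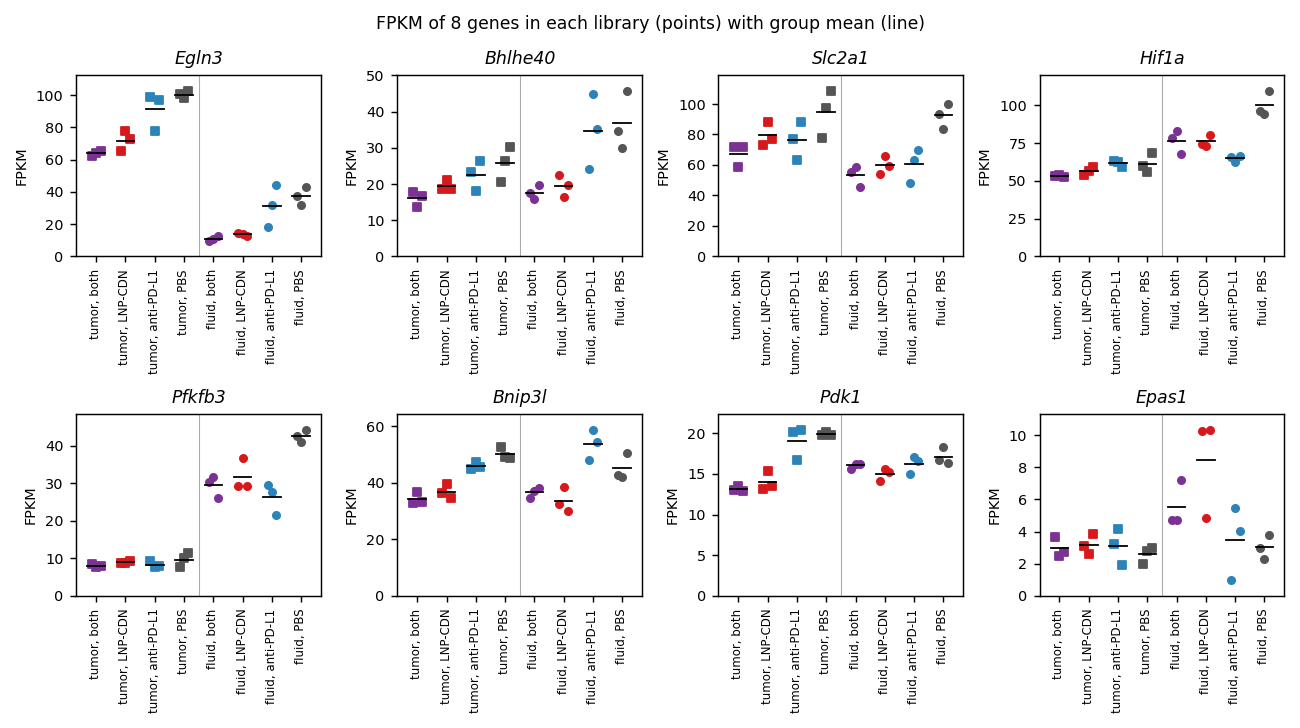
FPKM of 8 members in each library, with 1 panel per gene, squares for tumor and circles for fluid, colours for treatment, and a line at each group mean. Egln3 and Bhlhe40 in fluid are lowest in the 6 libraries given LNP-CDN, alone or combined, and Pdk1 in tumors shows the same division.

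Bhlhe40, a hypoxia-inducible transcriptional repressor, had 17.5, 15.8 and 19.6 FPKM with the combination and 22.4, 16.3 and 19.8 FPKM with LNP-CDN, against 34.6, 30.1 and 45.7 FPKM with PBS. These ranges did not overlap, and the changes were -1.002 ± 0.21 (limma adjusted p = 0.00589) and -0.87 ± 0.21 (adjusted p = 0.0137). With anti-PD-L1 it spread from 24.1 to 44.7 FPKM and was not called. Kdm3a, an oxygen-dependent histone demethylase induced by HIF, fell with all 3 treatments, averaging 11.99 ± 0.601, 13.0 ± 0.812 and 13.4 ± 0.841 FPKM with the combination, LNP-CDN and anti-PD-L1, against 16.1 ± 0.291 FPKM with PBS (-0.39, -0.29 and -0.24, each ± 0.07, limma adjusted p = 0.00178, 0.0103 and 0.0396).

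The mitophagy receptors differed from each other. Bnip3l had 32.5, 38.5 and 29.8 FPKM with LNP-CDN and 48.2, 58.5 and 54.4 FPKM with anti-PD-L1, against 42.8, 41.9 and 50.6 FPKM with PBS. The changes were -0.42 ± 0.11 (limma adjusted p = 0.0183) and 0.25 ± 0.11 (adjusted p = 0.157). The LNP-CDN libraries lay below the PBS range and the anti-PD-L1 libraries overlapped its top, and the combination averaged 36.6 ± 1.80 FPKM with no call. Bnip3l is also known for mitochondrial clearance in maturing red cells. Alas2, given above, was higher with anti-PD-L1 and PBS than with LNP-CDN, alone or combined. Between anti-PD-L1 and PBS, Bnip3l averaged 53.7 and 45.1 FPKM, while Alas2 changed by -0.38 with no call. A link between these genes was not tested. Bnip3 had 27.4, 32.2 and 28.2 FPKM with anti-PD-L1, against 43.3, 45.6 and 40.9 FPKM with PBS (-0.55 ± 0.16, limma adjusted p = 0.0427), and was uncalled at 35.7 ± 4.48 FPKM with the combination and 40.5 ± 10.6 FPKM with LNP-CDN.

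Of the remaining hypoxia targets, P4ha1, a catalytic subunit of collagen prolyl hydroxylase, was the 1 member higher with LNP-CDN. It had 57.6, 56.4 and 69.9 FPKM, against 42.8, 43.6 and 44.6 FPKM with PBS, with no overlap (0.47 ± 0.09, limma adjusted p = 0.00423). Mxi1, a repressor of MYC targets, and Higd1a, a small mitochondrial protein, fell with the combination by 0.42 ± 0.12 (limma adjusted p = 0.0231) and 0.37 ± 0.13 (adjusted p = 0.0472). Ankrd37 fell with anti-PD-L1 by 0.68 ± 0.20 (limma adjusted p = 0.0482), at 5.92, 9.47 and 4.29 FPKM against 11.9, 8.96 and 11.2 FPKM with PBS, and 1 anti-PD-L1 library lay inside the PBS range.

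The other targets were not called against PBS in fluid. Ddit4, a brake on mTORC1 that stress induces, had 14.1, 24.3 and 34.1 FPKM with the combination, 23.0, 37.0 and 16.7 FPKM with LNP-CDN and 13.3, 28.7 and 22.1 FPKM with anti-PD-L1, against 38.7, 39.4 and 38.0 FPKM with PBS. All treated libraries were below PBS, but they varied so much that the changes of -0.74, -0.65 and -0.89, each ± 0.35, were not called (limma adjusted p = 0.136, 0.200 and 0.1197). Ndrg1, a stress-response gene, averaged 8.84 FPKM with the combination, 8.72 FPKM with LNP-CDN and 14.6 FPKM with anti-PD-L1, against 13.5 FPKM with PBS. Hilpda, a lipid-droplet protein, averaged 45.9 to 58.4 FPKM, Car9, the carbonic anhydrase used as a hypoxia marker, 1.81 to 2.86 FPKM, and P4ha2 1.39 to 2.89 FPKM.

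Single libraries decided part of these calls. With each library of the fluid fit left out in turn, 11 of the 14 combination calls held, 6 of the 11 LNP-CDN calls and 2 of the 8 anti-PD-L1 calls, which were Pfkfb3 and Hif1a. The LNP-CDN count was 7 without LNP-CDN replicate 1 or replicate 3 and 6 without PBS replicate 3, and the calls lost with at least 1 library were Pfkfb3, Pgk1, Eno1, Bnip3l and Bhlhe40, with an adjusted p of up to 0.144 for Eno1 without LNP-CDN replicate 1. The anti-PD-L1 count was 2 without PBS replicate 1 or PBS replicate 3, 4 without PBS replicate 2 or combination replicate 1, and 5 without anti-PD-L1 replicate 1 or replicate 3, with an adjusted p of up to 0.155 for Ankrd37 without PBS replicate 1. With the combination Gapdh, Higd1a and Mxi1 were lost in this way, with an adjusted p of up to 0.0761 without PBS replicate 3, 0.164 without combination replicate 2 and 0.0829 without combination replicate 3. Fitted on only the 6 libraries compared, the counts were 22 with the combination, 17 with LNP-CDN and 3 with anti-PD-L1, and without the filter on low values anti-PD-L1 had 4. Shares over all genes in these fits are not given here, so a higher or lower member count cannot be set against all genes.

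**Figure D3:**
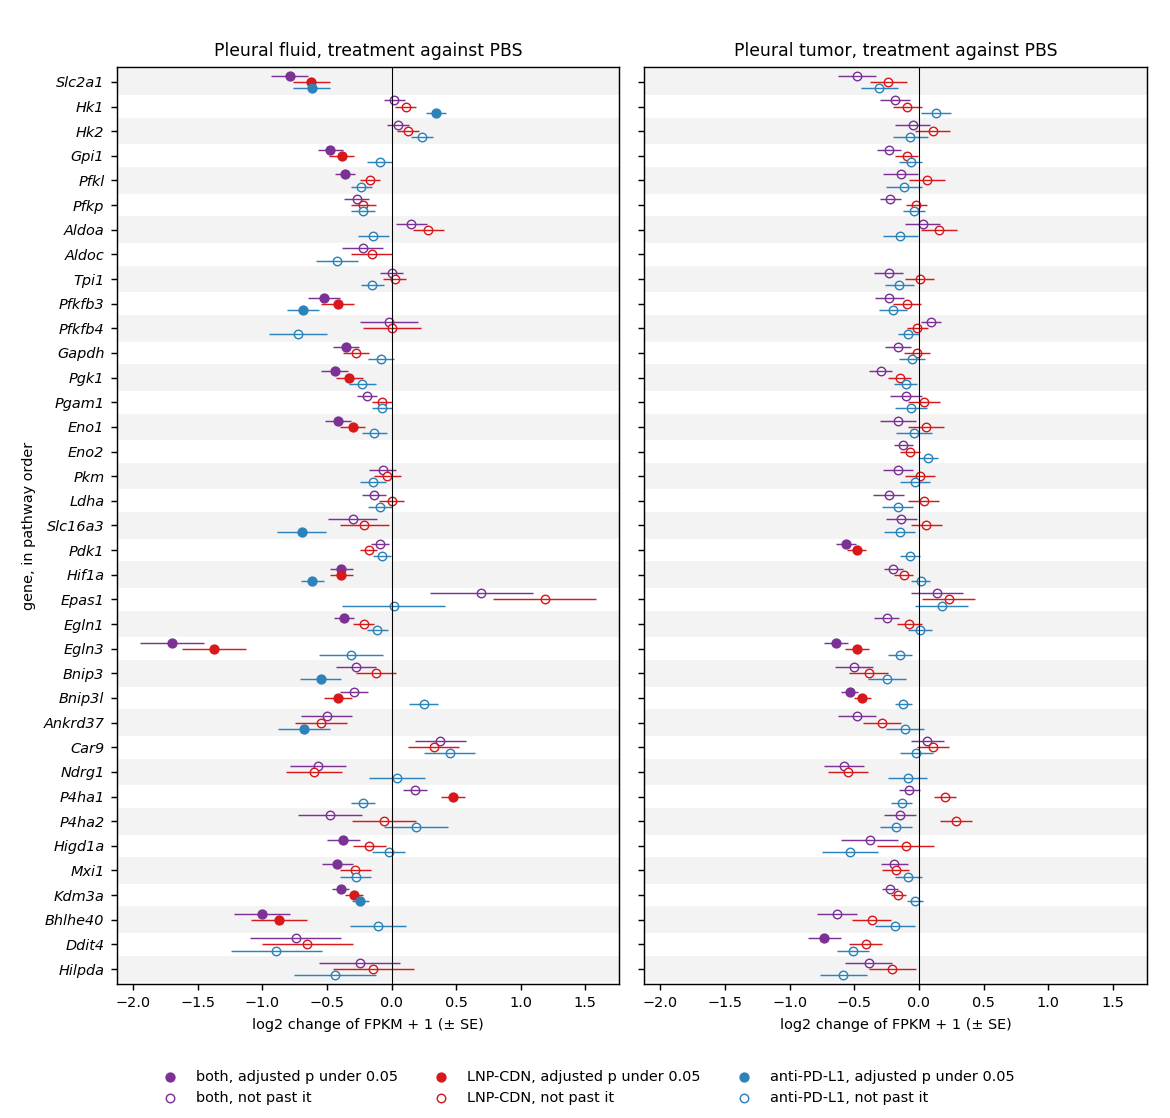
Log2 change of FPKM + 1 against PBS for each member in fluid (left) and tumor (right), with bars of 1 standard error. Colours mark the combination, LNP-CDN and anti-PD-L1, filled points have a limma adjusted p under 0.05, and Egln3 in fluid lies farthest from 0 among the filled points.

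The combination was then set against each single agent in fluid. Against LNP-CDN no member was called by limma, as for all 13518 genes (0%), with 2 members (P4ha1 and Pfkl) and 761 genes at an unadjusted p under 0.05, and limma-voom on recovered reads also called none. The differences were small, with a median member change of -0.11, beside -0.0069 over all genes, and 31 of 36 were negative. Member changes come from the same libraries, so their signs are not independent, and the share of negative changes over all genes is not given here. Against anti-PD-L1, whose fluid libraries also differ in Ddx3y, 9 members fell and 2 rose. This was 30.6% called, against 37.3% of all genes, 18.4% higher and 18.9% lower. By direction 5.56% of members were higher and 9 of 36 lower, so the lower share is above the background and the total below it. The largest was Egln3 at -1.38 ± 0.25 (limma adjusted p = 0.00193), followed by Bhlhe40 at -0.90 ± 0.21 (adjusted p = 0.00818). Bnip3l fell by 0.54 ± 0.11 (limma adjusted p = 0.00356) and Gpi1 by 0.38 ± 0.09 (adjusted p = 0.0103). Hk1, higher with anti-PD-L1 than with PBS, was 0.32 ± 0.08 lower with the combination than with anti-PD-L1 (limma adjusted p = 0.00895). Eno1 and Egln1 fell by 0.28 and 0.26 (limma adjusted p = 0.0422 and 0.0243), and Ndrg1 and Higd1a by 0.61 and 0.35 near the threshold (adjusted p = 0.0460 and 0.0497). P4ha1 rose by 0.40 ± 0.09 (limma adjusted p = 0.00647) and Pfkfb4 by 0.70 ± 0.22 (adjusted p = 0.0301). Pfkl and Gapdh were not called in either comparison with a single agent. Without combination replicate 1 or replicate 2 the count was 7 in place of 11, and the calls of Pfkfb4, Eno1, Egln1, Ndrg1 and Higd1a were lost with at least 1 library left out, with an adjusted p of up to 0.174 for Higd1a without combination replicate 2.

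In pleural tumors fewer members changed, and those that did were lower. With the combination 4 of 36 members tested fell and none rose (11.1% of members, against 1.18% of all 13173 genes called in either direction, 0.881% higher and 0.304% lower). With LNP-CDN 3 fell and none rose (8.33%, against 3.36% of all genes, 1.89% higher and 1.47% lower). With anti-PD-L1 no member and no gene was called (0%) by limma or by limma-voom, with 3 members (Ddit4, Hilpda and Higd1a) and 821 genes at an unadjusted p under 0.05. The median member change was -0.22 with the combination, -0.08 with LNP-CDN and -0.09 with anti-PD-L1, beside 0.01, 0.01 and 0.00 over all genes, and these comparisons share the tumor PBS libraries. Aldoc was under the filter in tumors, at 0.426 to 0.480 FPKM.

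Egln3, Pdk1 and Bnip3l made up the calls that LNP-CDN and the combination had in common. Egln3 had 62.6, 63.9 and 65.4 FPKM with the combination and 65.3, 77.5 and 72.6 FPKM with LNP-CDN, against 101, 98.0 and 103 FPKM with PBS. It fell by 0.64 ± 0.09 (limma adjusted p = 0.00781) and by 0.48 ± 0.09 (adjusted p = 0.0257), with no overlap. Pdk1 (chr2:71873224-71903858, plus strand) had 13.1, 13.5 and 12.9 FPKM with the combination and 13.2, 15.3 and 13.5 FPKM with LNP-CDN, against 19.8, 20.2 and 19.8 FPKM with PBS. It fell by 0.56 ± 0.08 (limma adjusted p = 0.00763) and by 0.48 ± 0.08 (adjusted p = 0.0133), again with separate ranges. Bnip3l (chr14:66985239-67008877, minus strand) had 32.7, 36.8 and 33.3 FPKM with the combination and 36.2, 39.4 and 34.5 FPKM with LNP-CDN, against 52.5, 49.0 and 48.6 FPKM with PBS. It fell by 0.53 ± 0.07 (limma adjusted p = 0.00399) and by 0.44 ± 0.07 (adjusted p = 0.0126).

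With anti-PD-L1 alone these 3 genes stayed nearer PBS. Egln3 averaged 91.2 ± 11.6 FPKM, Pdk1 19.1 ± 2.04 FPKM and Bnip3l 45.9 ± 1.14 FPKM, with no call. In tumors that also differ in Ddx3y, the combination was lower than anti-PD-L1 for the same 3 genes and for no other member (8.33%, against 1.55% of all genes, 1.16% higher and 0.387% lower), by 0.50 ± 0.09 for Egln3 (limma adjusted p = 0.0267), 0.50 ± 0.08 for Pdk1 (adjusted p = 0.0124) and 0.41 ± 0.07 for Bnip3l (adjusted p = 0.0153). Against LNP-CDN the combination had no call among members or among all genes (0%) with limma or limma-voom, with 5 members (Ldha, Pfkp, P4ha1, P4ha2 and Ddit4) and 680 genes at an unadjusted p under 0.05. Of 36 member changes 35 were negative, with a median of -0.15, beside -0.0046 over all genes. These signs come from the same libraries and are not independent, and a shared decrease was not tested.

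Ddit4 fell in tumors with the combination. It had 28.5, 19.8 and 27.0 FPKM, against 42.5, 45.0 and 38.4 FPKM with PBS, with no overlap and a change of -0.73 ± 0.13 (limma adjusted p = 0.0198). With LNP-CDN it averaged 31.3 ± 2.46 FPKM and with anti-PD-L1 29.2 ± 2.96 FPKM, both uncalled. Other hypoxia targets had lower means with the combination without a call. Bhlhe40 averaged 16.1 ± 2.10 FPKM, against 25.7 ± 4.80 FPKM with PBS (-0.63 ± 0.15, limma adjusted p = 0.0808). Ndrg1 averaged 23.0 ± 2.57 FPKM, against 34.8 ± 4.45 FPKM with PBS (-0.58 ± 0.15, adjusted p = 0.108), and Slc2a1 67.3 ± 7.45 FPKM, against 94.5 ± 15.7 FPKM with PBS (-0.48 ± 0.15, adjusted p = 0.164).

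Among the 19 glycolytic members tested in tumors, Pdk1 was called and no other. That is 5.26% of them, against 1.18% of all genes with the combination and 3.36% with LNP-CDN. Against PBS, 17 of 19 changes were negative with the combination (median -0.16) and 17 of 19 with anti-PD-L1 (median -0.07). With LNP-CDN 10 of 19 were negative (median -0.01). The medians over all genes were 0.01, 0.00 and 0.01 with the combination, anti-PD-L1 and LNP-CDN. At an unadjusted p under 0.05 there were 5, 0 and 1 of the 19 in the same order. The 19 changes come from the same libraries, so their signs are not independent, and a shared decrease was not tested. With the combination Gapdh averaged 548 ± 17.0 FPKM, against 616 ± 53.8 FPKM with PBS, Pgk1 331 ± 5.89 FPKM against 406 ± 26.9 FPKM with PBS, and Ldha 360 ± 9.50 FPKM against 425 ± 44.7 FPKM with PBS, all uncalled. Tumor PBS replicate 1 was the lowest of the PBS libraries for 17 of the 20 glycolytic members, such as Hk2 at 24.3 FPKM beside 34.1 and 40.4 FPKM, and it is also the PBS library with Ddx3y.

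Of the tumor calls, that of Bnip3l with the combination held with each library of the tumor fit left out, and the others did not. For LNP-CDN the count was 0 without LNP-CDN replicate 3, 1 without LNP-CDN replicate 1 or PBS replicate 2, and 5 without anti-PD-L1 replicate 2. For the combination it was 2 without combination replicate 1, where Bnip3l had an adjusted p of 0.0348 and Egln3 and Pdk1 stood at 0.0526 and 0.0525, and Ddit4 reached 0.0976 without PBS replicate 2. Against anti-PD-L1 it was 0 without combination replicate 1, combination replicate 3 or anti-PD-L1 replicate 3. Fitted on only the 6 libraries compared, LNP-CDN had 1 call and the combination against anti-PD-L1 had 0, and the shares over all genes in these fits are not given here. Markers of other cells were also called in tumors. Of 6 monocyte markers 2 rose with the combination (Ly6c2 and Plac8), and 3 were called with LNP-CDN (Ly6c2, Plac8 and F13a1), 2 higher and 1 lower. Among 9 macrophage markers 1 (Fcgr1) rose with the combination and none with LNP-CDN, and among 9 neutrophil markers 1 (Mmp8) rose with each.

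Tumor and fluid cells differed in most members, as in most genes. With PBS 8 members were higher and 17 lower in tumors (67.6% of 37, against 74.8% of all 15222 genes), with LNP-CDN 8 and 14 (59.5%, against 76.3%), with anti-PD-L1 8 and 16 (64.9%, against 70.7%), and with the combination 7 and 15 (59.5%, against 76.4%). Over all genes the shares higher and lower were 37.0% and 37.9% with PBS, 37.5% and 38.8% with LNP-CDN, 34.6% and 36.1% with anti-PD-L1, and 37.2% and 39.2% with the combination. The members' shares called in either direction lie below the background, with 21.6%, 21.6%, 21.6% and 18.9% of members higher and 45.9%, 37.8%, 43.2% and 40.5% lower in the same order. With PBS, 2 of the 20 glycolytic members were higher and 13 lower in tumors, and 6 of the 17 HIF factors, sensors and targets were higher and 4 lower. The split of higher and lower depends on scaling. Scaling by total reads shifted the all-gene median by 0.30 to 0.34 toward tumor and gave 17 higher and 9 lower with PBS, 19 and 9 with LNP-CDN, 16 and 7 with anti-PD-L1, and 16 and 8 with the combination. Upper quartile scaling shifted it by 0.16 to 0.18 and gave 12 and 13, 14 and 12, 12 and 9, and 10 and 12. The shares of all genes above are for the deposited scaling. Those under the 2 other scalings are not given here, so these member counts cannot be set against all genes. Egln1, Egln3, Eno2, Kdm3a, Mxi1 and Ndrg1 were higher, and Aldoa, Aldoc, Gpi1, Pfkfb3, Pfkfb4, Pfkp and Slc16a3 lower, under all 4 treatments and all 3 scalings.

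**Figure D4:**
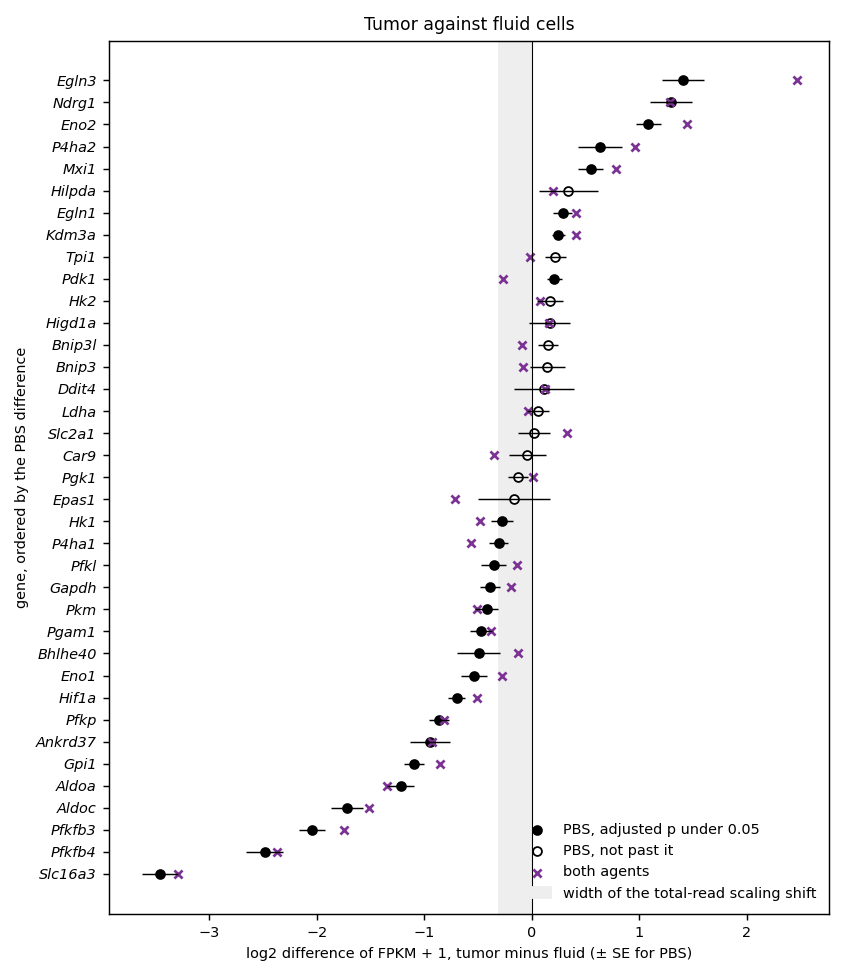
Log2 difference of FPKM + 1, tumor minus fluid, for each member. Circles with bars of 1 standard error are PBS libraries, filled where the limma adjusted p was under 0.05, crosses are combination libraries, the grey band is as wide as the shift that total-read scaling makes, and Slc16a3 lies farthest left.

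The members lower in PBS tumors under all 3 scalings were mainly glycolytic. Slc16a3 had 6.59, 8.55 and 9.31 FPKM in PBS tumors, against 97.8, 86.8 and 114 FPKM in PBS fluid, a difference of -3.46 ± 0.17 (limma adjusted p = 5.95e-13) and a mean 12.2-fold higher in fluid. Pfkfb4 averaged 2.43 ± 0.191 FPKM in PBS tumors and 18.2 ± 0.689 FPKM in PBS fluid (-2.49 ± 0.17, limma adjusted p = 1.44e-10), and Pfkfb3 9.66 ± 1.83 FPKM in PBS tumors and 42.5 ± 1.54 FPKM in PBS fluid (-2.05 ± 0.12, adjusted p = 1.63e-11). These 3 members were several-fold lower in the tumor libraries, whereas Pfkfb1, a related bifunctional enzyme of the wider glycolytic list, averaged 2.05 FPKM in PBS tumors and 0.915 FPKM in PBS fluid (0.67 ± 0.09, limma adjusted p = 9.9e-07). Aldoc averaged 0.480 FPKM in PBS tumors and 3.87 FPKM in PBS fluid, and Aldoa 193 ± 36.7 FPKM in tumors and 446 ± 11.0 FPKM in fluid. Gpi1 averaged 71.6 ± 5.20 FPKM in PBS tumors and 154 ± 4.05 FPKM in PBS fluid, and Pfkp 14.5 ± 1.37 FPKM in tumors and 27.2 ± 1.12 FPKM in fluid. Hif1a averaged 61.4 ± 6.52 FPKM in PBS tumors and 100.015 ± 8.21 FPKM in PBS fluid (-0.70 ± 0.08, limma adjusted p = 1.68e-07).

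The members higher in PBS tumors under all 3 scalings were mainly hypoxia targets and sensors. Egln3 averaged 100.4 ± 2.30 FPKM in PBS tumors and 37.4 ± 5.48 FPKM in PBS fluid (1.41 ± 0.20, limma adjusted p = 2.31e-06), and with the combination 64.0 ± 1.42 FPKM in tumors and 10.8 ± 1.57 FPKM in fluid (2.47 ± 0.20, adjusted p = 7.51e-10). Ndrg1 averaged 34.8 ± 4.45 FPKM in PBS tumors and 13.5 ± 0.530 FPKM in PBS fluid (1.29 ± 0.20, limma adjusted p = 7.17e-06). Eno2 averaged 2.97 ± 0.253 FPKM in PBS tumors and 0.884 ± 0.273 FPKM in PBS fluid (1.08 ± 0.11, limma adjusted p = 5.53e-08). Mxi1 was 0.55 ± 0.12 higher, Egln1 0.29 ± 0.09 and Kdm3a 0.25 ± 0.06 (limma adjusted p = 0.000269, 0.00666 and 0.00120). Hif1a RNA itself was lower in tumors, as given above, while these targets and sensors were higher.

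With PBS, Ankrd37 was 0.95 lower in tumors, and P4ha2 and Pdk1 were 0.63 and 0.21 higher, under all 3 scalings. Eno1, Bhlhe40, Pgam1, Pkm, Gapdh, Pfkl, P4ha1 and Hk1 were 0.27 to 0.54 lower, and under total-read scaling none of these 8 was called and Pfkl, P4ha1 and Hk1 changed sign. Ddit4, Higd1a, Hilpda, Hk2, Ldha, Pgk1 and Tpi1 were called under no treatment in the deposited scaling, with Ldha at 425 ± 44.7 FPKM in PBS tumors and 406 ± 5.36 FPKM in PBS fluid. Under total-read scaling each of them was called higher in tumors with at least 1 treatment, and Hk2, Ldha, Pgk1 and Tpi1 with all 4.

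Single libraries decided some tissue calls. With PBS, Hk1 and Pfkl were lost without tumor PBS replicate 1 (limma adjusted p = 0.197 and 0.0998) and Pdk1 and Bhlhe40 without fluid PBS replicate 3 (adjusted p = 0.0575 and 0.163). With LNP-CDN, Slc2a1, 0.41 higher in tumors, was lost without tumor LNP-CDN replicate 2 (adjusted p = 0.0857), and with the combination Eno1 without fluid combination replicate 2 (adjusted p = 0.101). With anti-PD-L1, Pkm, Pdk1, Bnip3, Bnip3l, Car9, P4ha1 and Bhlhe40 were lost with at least 1 library left out, with an adjusted p of up to 0.176 for Bnip3l without fluid anti-PD-L1 replicate 2. The tissues hold different cells. The 9 macrophage markers summed to 369 to 529.6 FPKM in tumor libraries and 3087 to 7377 FPKM in fluid libraries, the 9 neutrophil markers to 59.7 to 167 FPKM in tumor and 663 to 5382 FPKM in fluid libraries, and the 8 cell cycle genes to 375 to 477 FPKM in tumor and 109 to 279 FPKM in fluid libraries. Between PBS tumors and PBS fluid all 6 monocyte, 6 B cell and 8 T cell markers were lower in tumors, 5 of 6 fibroblast markers and all 8 cell cycle genes were higher, and of 5 tested epithelial markers 2 were higher and 3 lower. Their part in the tissue differences was not tested.

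The treatment effects themselves were compared between tumor and fluid. For the combination 2 of 37 members differed (5.41%, against 15.0% of all genes), for LNP-CDN 1 (2.70%, against 15.3%) and for anti-PD-L1 1 (2.70%, against 5.31%), shares below the background. Over all genes 7.86% had a higher and 7.17% a lower effect in tumors for the combination, 7.86% and 7.40% for LNP-CDN, and 3.58% and 1.73% for anti-PD-L1. In the wider glycolytic list described below, 7 of 22 genes differed for the combination and 7 for LNP-CDN (31.8% each, 6 higher and 1 lower), above the background, and 1 for anti-PD-L1 (4.55%). In the wider HIF list 4 of 28 (14.3%), 5 (17.9%) and 1 (3.57%) differed in that order. Egln3 changed more in fluid, with a tumor minus fluid difference in log2 change of 1.06 ± 0.28 for the combination (limma adjusted p = 0.0151) and 0.89 ± 0.28 for LNP-CDN (adjusted p = 0.0369). The second of these was lost without fluid LNP-CDN replicate 2 or replicate 3, fluid PBS replicate 1 or replicate 3, tumor LNP-CDN replicate 2 or replicate 3, or any 1 of the tumor PBS libraries, with an adjusted p of up to 0.0957 without fluid PBS replicate 3. Pdk1 changed more in tumors with the combination (-0.48 ± 0.10, limma adjusted p = 0.00424). Hif1a was lower with anti-PD-L1 in fluid, at 64.8 ± 2.19 FPKM against 100.015 ± 8.21 FPKM with PBS, while tumors had 61.7 ± 2.27 FPKM with anti-PD-L1 and 61.4 ± 6.52 FPKM with PBS, a difference between effects of 0.63 ± 0.11 (limma adjusted p = 0.00322).

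Other genes of the same pathways, 29 of glycolysis and pyruvate use and 33 of the HIF pathway, were examined in the same fits. In fluid 21 of the glycolytic list were tested, and 1 rose and 7 fell with the combination, none rose and 6 fell with LNP-CDN, and 3 rose and 3 fell with anti-PD-L1. The shares called in either direction were 38.1%, 28.6% and 28.6% in that order, against 30.1%, 26.0% and 13.0% of all genes. By direction, 33.3%, 28.6% and 14.3% of the list were lower, against 14.4%, 12.3% and 7.49% of all genes. The shares higher were 4.76%, 0% and 14.3%, against 15.6%, 13.7% and 5.47% of all genes. Slc2a3, the high-affinity transporter GLUT3, averaged 3.32 FPKM with the combination, 3.48 FPKM with LNP-CDN and 2.79 FPKM with anti-PD-L1, against 9.78 FPKM with PBS, and was called in all 3 comparisons (-1.31, -1.25 and -1.49, each ± 0.22). Ldhb, the heart-type lactate dehydrogenase subunit, averaged 1.01 FPKM with the combination and 2.07 FPKM with LNP-CDN, against 3.36 FPKM with PBS (-1.12 and -0.52, each ± 0.15). Hk3, a myeloid hexokinase, was the 1 gene of the list that rose with the combination, at 226 FPKM against 131 FPKM with PBS (0.80 ± 0.26, limma adjusted p = 0.0374). Bpgm, which makes 2,3-bisphosphoglycerate in red cells, averaged 3.36 FPKM with the combination and 2.73 FPKM with LNP-CDN, against 12.1 FPKM with PBS (-1.51 and -1.74, each ± 0.25). Alas2, given above, differed between the same libraries, and a link between Bpgm and Alas2 was not tested.

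Of 27 tested genes of the HIF list in fluid, none rose and 7 fell with the combination, 1 rose and 6 fell with LNP-CDN, and none rose and 4 fell with anti-PD-L1. The shares called in either direction were 25.9%, 25.9% and 14.8%, near or below the 30.1%, 26.0% and 13.0% of all genes. By direction, 25.9%, 22.2% and 14.8% of the list were lower, above the 14.4%, 12.3% and 7.49% of all genes. The shares higher were 0%, 3.70% and 0%, below the 15.6%, 13.7% and 5.47% of all genes. Adm, the HIF-inducible vasodilator adrenomedullin, averaged 1.94 FPKM with the combination and 2.00 FPKM with LNP-CDN, against 18.4 FPKM with PBS (-2.72 and -2.75, each ± 0.33, limma adjusted p = 0.000313 and 0.000342). Lox, which crosslinks collagen, averaged 0.834 and 1.14 FPKM in the same groups, against 2.31 FPKM with PBS (-0.84 and -0.62, each ± 0.16). Plod2, a collagen lysyl hydroxylase, averaged 3.43 FPKM with the combination, against 6.84 FPKM with PBS (-0.82 ± 0.24). Gys1, the muscle-type glycogen synthase, averaged 10.1 FPKM with the combination and 10.3 FPKM with LNP-CDN, against 16.5 FPKM with PBS (-0.66 and -0.64, each ± 0.15). Cxcr4, a chemokine receptor, averaged 11.4 FPKM with anti-PD-L1, against 21.5 FPKM with PBS (-0.88 ± 0.20). Kdm6b, a histone demethylase, fell with all 3 treatments, to 20.7 FPKM with the combination and with LNP-CDN and 18.1 FPKM with anti-PD-L1, against 32.4 FPKM with PBS. In tumors 1 of 28 HIF list genes fell with the combination, Ero1l, an oxidase of protein folding, to 40.8 FPKM against 60.8 FPKM with PBS (-0.56 ± 0.10, limma adjusted p = 0.0198). From the glycolytic list Slc2a3 fell there with the combination, to 1.68 FPKM against 2.59 FPKM with PBS (-0.42 ± 0.08, adjusted p = 0.0413). No gene of either list was called in tumors with LNP-CDN or anti-PD-L1.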

How the data were processed

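RNA-seq was made from 24 libraries, 3 from each of 4 treatments in pleural tumor and in pleural fluid cells, after poly-A selection with a library kit without strand information, per the labels' protocols. Tools named in the submitters' processing notes are STAR, featureCounts, fastp and DESeq2, with mm9 as build and no version or role for any. The authors deposited FPKM values per gene beside gene length, per the file headers. The deposited coordinates match GRCm38 for 53474 of 54383 gene IDs shared with GENCODE M21, so GRCm38 positions are given.

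FPKM times gene length, in units of 1 read as found from the steps between low values, gave whole reads (within 0.01) for 99.92 to 99.97% of values, and 14584438 to 26888253 reads per library. Of 21 genes with values that were not whole, none is a member. Columns of other samples numbered 0, and 27 symbols are spelled as dates in the table.

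A gene was tested when 3 or more libraries of the fit reached an FPKM of 1. Differences of log2(FPKM + 1), which understate changes of low genes, were tested with limma 3.58.1 (R 4.3.3), trended moderated variances, over 12 libraries within a tissue and 24 across tissues. Adjustment was over all genes tested. An exact permutation test of 3 against 3 cannot go below 0.1 and was not used. Replicates differed by a chi-square per degree of freedom of 4.55 to 84.1, so none was a duplicate, and p-values measure the spread between these libraries, 1 per mouse and tissue as far as the labels say. The fits were tested on simulated data. Tables and plots used Python 3.11.15, pandas 2.3.3, numpy 2.4.6 and matplotlib 3.10.9.

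Alternatives were a pseudocount of 0.1, no filter, 2 other scalings, limma-voom on recovered reads, leaving out each library, a replicate block and fits of the compared groups alone. All 37 members are accounted for. Members past the threshold are named by size of change and uncalled ones by levels. Up to 4 genes of each pathway list are named per comparison by size of change, and Pfkfb1 is named beside Pfkfb3 and Pfkfb4. The members and lists were chosen with earlier results of these data known. Promoters were matched by symbol to a RefSeq table of GRCm38.p6.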

Additional observations from a re-analysis of the deposited data

Results flagged for a closer look

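Treatment effects on 3 members differed between tumor and fluid in a test of the difference itself, with limma over all 24 libraries. For Egln3 the tumor minus fluid difference in log2 change was 1.06 ± 0.28 with the combination (limma adjusted p = 0.0151) and 0.89 ± 0.28 with LNP-CDN (adjusted p = 0.0369). Egln3 was lower than with PBS in all 6 libraries of each tissue given LNP-CDN, alone or combined. For Pdk1 the difference was -0.48 ± 0.10 with the combination (limma adjusted p = 0.00424), with levels of 13.1, 13.5 and 12.9 FPKM in combination tumors against 19.8, 20.2 and 19.8 FPKM in PBS tumors, and fluid means of 16.04 FPKM with the combination against 17.1 FPKM with PBS. For Hif1a the difference was 0.63 ± 0.11 with anti-PD-L1 (limma adjusted p = 0.00322), with fluid means of 64.8 FPKM with anti-PD-L1 against 100.015 FPKM with PBS, and in fluid this treatment cannot be told apart from sex.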

How the results depend on the processing

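Over all members, comparisons and alternatives, 14366 values kept their side of the threshold, 277 lost a call and 200 gained one. A further 26 changed sign where the main or the alternative fit made a call. For values called in neither fit, direction was not compared. Member counts stayed within 1.5 times under a pseudocount of 0.1, upper quartile scaling and limma-voom on recovered reads, which called 14, 9, 14, 0 and 12 members in fluid (LNP-CDN, anti-PD-L1 and the combination against PBS, then the combination against LNP-CDN and against anti-PD-L1) and 4, 0, 6, 0 and 3 in tumors. Among all genes limma-voom called 3559, 1994, 4239, 0 and 5284 in fluid and 639, 0, 264, 0 and 319 in tumors. Fitted on only the libraries compared, the counts were 17 in place of 11 for fluid LNP-CDN, 3 in place of 8 for fluid anti-PD-L1, 22 in place of 14 for the fluid combination, 5 in place of 11 for the fluid combination against anti-PD-L1, 1 in place of 3 for tumor LNP-CDN, and 0 in place of 3 for the tumor combination against anti-PD-L1. Without the filter on low values they were 4 for fluid anti-PD-L1, 7 for the fluid combination against anti-PD-L1, and 0 in place of 1 for the tumor minus fluid effect of LNP-CDN, which was also 0 under total-read scaling. Apart from limma-voom, counts over all genes in the alternative fits are not given here, so these member counts cannot be set against all genes. The cause of the changed counts was not tested.

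With 1 library left out, the counts in fluid ranged from 6 to 16 for LNP-CDN, 2 to 8 for anti-PD-L1, 11 to 17 for the combination and 7 to 14 for the combination against anti-PD-L1. In tumors they ranged from 0 to 5, stayed at 0, and ranged from 2 to 5 and 0 to 4 for the same comparisons. The counts for the combination against LNP-CDN stayed at 0 in both tissues. Tumor against fluid gave 24 to 26 with PBS, 21 to 25 with LNP-CDN, 21 to 26 with anti-PD-L1 and 21 to 25 with the combination, and the tumor minus fluid effects gave 0 to 2, 1 to 3 and 2 to 3.

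Same-numbered libraries did not deviate together (median r of 0.00667 in fluid, 0.00881 in tumors and 0.0250 between the tissues of a treatment). Libraries of the same mouse need not deviate together, so these values cannot tell which libraries share a mouse. With a replicate block the counts were 10, 7, 14, 0 and 9 in fluid and 2, 0, 3, 0 and 2 in tumors.

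Under total-read scaling the tumor minus fluid difference changed sign to 0.0812 for Hk1, 0.00922 for Pfkl, 0.24 for Pgk1 and 0.0555 for P4ha1 with PBS, and to 0.26 for Pfkl, 0.28 for Gapdh, 0.0355 for Pgam1, 0.0220 for Pkm and 0.28 for Pdk1 with LNP-CDN. With anti-PD-L1 it became 0.25 for Hk2, 0.0370 for Gapdh, 0.39 for Pgk1 (0.21 under upper quartile scaling), 0.0860 for Pkm, 0.38 for Ldha, 0.32 for Hif1a, 0.17 for Bnip3l and 0.16 for P4ha1. With the combination it became 0.26 for Pfkl, 0.39 for Tpi1, 0.21 for Gapdh, 0.0199 for Pgam1, 0.12 for Eno1, 0.37 for Ldha, 0.11 for Pdk1 and 0.30 for Bnip3l. This scaling moved the median of all genes by 0.30 to 0.34 in these comparisons, so tissue differences of that size take their sign from the scaling.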

Other observations

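Other genes of both pathways also differed between tumor and fluid. With PBS, 4 of 22 tested genes of the wider glycolytic list were higher and 9 lower in tumors, and 15 of 28 of the wider HIF list were higher and 8 lower, beside 37.0% of all genes higher and 37.9% lower. Hk3, a myeloid hexokinase, averaged 8.15 FPKM in PBS tumors and 131 FPKM in PBS fluid (-3.83 ± 0.23). Slc2a6, a lysosomal sugar transporter, averaged 1.42 FPKM in PBS tumors and 14.0 FPKM in PBS fluid (-2.63 ± 0.14), and Pygl, the liver-type glycogen phosphorylase, 2.64 FPKM in tumors and 53.0 FPKM in fluid (-3.90 ± 0.18). All of these were lower in tumors, as Slc16a3 was among the members.

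In the other direction, Slc16a1, which encodes the lactate transporter MCT1, averaged 53.3 FPKM in PBS tumors and 11.7 FPKM in PBS fluid (2.10 ± 0.14), opposite in sign to Slc16a3. Pfkm, the muscle-type phosphofructokinase, averaged 13.2 FPKM in PBS tumors and 3.26 FPKM in PBS fluid (1.74 ± 0.13), and Plod2 49.0 FPKM in tumors and 6.84 FPKM in fluid (2.68 ± 0.19). Adm averaged 76.3 FPKM in PBS tumors and 18.4 FPKM in PBS fluid (1.97 ± 0.29). Unlike these genes, Plin2, a lipid-droplet coat protein, was lower in tumors, at 73.1 FPKM in PBS tumors and 471 FPKM in PBS fluid (-2.68 ± 0.16).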
